A study of Mus musculus with 26 samples.

Results

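Acute phase reactants are genes whose liver transcripts change when the body meets injury or infection, and 10 of them were followed here: Saa1, Saa2, Saa3, Orm1, Orm2, Lcn2, Hp, Apcs, Socs3 and Steap4. The members were taken by name, by matching the Ensembl identifiers of the deposited gene table to these symbols, and all 10 were found among its 47643 genes. No rule on measured values picked them, but they were chosen with earlier results of these data known. Their transcripts were read in 26 mouse liver libraries that make up 10 groups, and each treated or mutant group was set against its own control group.

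The first experiment used whole liver of 8-week-old C57BL/6J wild type mice fed ad libitum, with 2 libraries after an injection of TCPOBOP, a compound that activates the nuclear receptor CAR, and 2 after corn oil. The titles give 36 hours and the source names 6 hours after TCPOBOP, so the time is not certain. The second compared whole liver of 12-week-old ad libitum-fed Fxr-/- Shp-/- mice, which lack the bile acid receptor FXR and its target SHP in every cell, with wild type mice of the same C57BL/6J background (3 libraries each). The third compared whole liver of C3H/HeN mice aged 8 to 10 weeks and fed ad libitum, 48 hours after partial hepatectomy (PHx), with sham-operated mice taken at 0 hours (3 libraries each), so time after surgery and the operation differ together. The fourth used isolated hepatocytes of 16-week-old C57BL/6J wild type mice after a 10 hour fast, on a 60% high fat diet or on chow (2 libraries each). The fifth used whole liver of C57BL/6J mice that carry floxed Fxr and Shp alleles and for which the labels name no Cre, aged 10 to 12 weeks and fasted for 8 to 10 hours, on a cholic acid diet or on chow (3 libraries each). The labels number the replicates without saying that they are separate animals, so p-values measure the spread between these libraries, which may be partly technical.

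In the liver the acute phase response is set off mainly by the cytokines interleukin 6, which acts through its receptor, JAK kinases and STAT3, and interleukin 1, which acts through NF-kB, and C/EBP factors bind many of the target promoters. Serum amyloid A, orosomucoid, haptoglobin, serum amyloid P and lipocalin 2 are secreted proteins of this response. SOCS3 is the inhibitor that STAT3 induces to shut off interleukin 6 signalling, and STEAP4 is a metalloreductase that inflammatory signals induce in liver.

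Between 13949059 and 70367874 reads were assigned to genes per library, so that the 3-count limit of detection lay between 0.0426 and 0.215 counts per 1000000 gene counts. Levels are given as CPM, the same quantity with library sizes scaled by TMM (edgeR's trimmed mean normalization) over the 26 libraries. The 10 hepatocyte markers, albumin among them, summed to 48386 to 125824 CPM over all libraries. Their sum was 48386 in the library labelled corn oil 1, 95585 in corn oil 2, and 57183 and 53624 in the TCPOBOP libraries. In the knockout libraries the count of Nr0b2, the gene of SHP, was 13 to 39, against 226 to 446 in wild type, and that of Nr1h4, the gene of FXR, was 1198 to 1421, against 1941 to 2846. The level of Cyp2b10, the best known CAR target, goes against the label of 1 library: 10.0 CPM were found in corn oil 2 and 3420 and 2976 in the TCPOBOP libraries, yet 3672 in the library labelled corn oil 1. Flox chow 3 stood apart from the other chow libraries of its group, being over 2 times both of them for 806 of 12577 genes (6.41%), against 76 and 75 genes for the other two. Reads that aligned to several places were 43.2% to 44.1% in wild type and 25.5% to 26.9% in the knockout, and 16.6% to 25.1% elsewhere.

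Saa1 (chr7:46740497-46742980, minus strand), Saa2 (chr7:46751790-46754313, plus strand) and Saa3 (chr7:46711998-46715700, minus strand) lie near each other in the GRCm38 gene models of GENCODE M21. Orm1 (chr4:63344560-63348163) and Orm2 (chr4:63362449-63365878) lie near each other on the plus strand. The others are single genes: Lcn2 (chr2:32384633-32388252, minus), Hp (chr8:109575128-109579172, minus), Apcs (chr1:172893961-172895041, minus), Socs3 (chr11:117966079-117970047, minus) and Steap4 (chr5:7960457-7982213, plus). Saa1 and Saa2 are close copies, so reads that fit both could have been lost or shared, and the same holds for the orosomucoid genes. The RefSeq promoter table (GRCm38.p6) held 8 members, not Orm1 and Hp. Upstream sequence is shown for Saa1 and Saa2 because, of all member pairs, their levels varied together most closely within groups. They did not always move alike, as without wild type 3 their knockout changes were 0.072 for Saa1 and 2.61 for Saa2. It is also shown for Saa3, Orm2 and Steap4, which did not follow Saa1 and Saa2 everywhere. Each run covers 250 to 51 bases before the annotated start, written 5′ to 3′ on the gene's strand, with matches to the motifs searched in capitals. The runs lie at chr7:46743031-46743230, minus strand (Saa1), chr7:46751583-46751782, plus strand (Saa2), chr7:46715727-46715926, minus strand (Saa3), chr4:63362199-63362398, plus strand (Orm2) and chr5:7960222-7960421, plus strand (Steap4).
Saa1: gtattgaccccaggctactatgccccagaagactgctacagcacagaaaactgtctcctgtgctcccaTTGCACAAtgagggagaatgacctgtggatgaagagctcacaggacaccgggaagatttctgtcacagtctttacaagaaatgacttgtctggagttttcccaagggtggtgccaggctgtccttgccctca
Saa2: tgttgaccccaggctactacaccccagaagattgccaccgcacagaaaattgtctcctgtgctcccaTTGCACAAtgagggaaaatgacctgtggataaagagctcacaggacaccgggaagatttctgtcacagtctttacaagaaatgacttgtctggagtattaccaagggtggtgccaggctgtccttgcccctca
Saa3: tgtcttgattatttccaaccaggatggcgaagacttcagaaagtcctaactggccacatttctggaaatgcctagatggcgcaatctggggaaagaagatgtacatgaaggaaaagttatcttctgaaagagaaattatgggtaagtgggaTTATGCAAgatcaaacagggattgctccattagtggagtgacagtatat
Orm2: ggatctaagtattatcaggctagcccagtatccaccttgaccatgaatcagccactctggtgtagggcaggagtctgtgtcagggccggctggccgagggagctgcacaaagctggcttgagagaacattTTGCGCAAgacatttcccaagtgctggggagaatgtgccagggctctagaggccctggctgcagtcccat
Steap4: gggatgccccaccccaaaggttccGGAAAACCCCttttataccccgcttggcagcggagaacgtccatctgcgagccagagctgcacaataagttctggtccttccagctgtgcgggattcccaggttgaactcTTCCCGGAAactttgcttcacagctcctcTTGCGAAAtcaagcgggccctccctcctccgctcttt

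Saa1 and Saa2 shared 238 of 249 aligned upstream bases (95.6%). The motifs were searched on both strands of the 250 bases before the start. The C/EBP letters TTNNGCAA were found in 6 of the 8 members with a window and in 9.57% of all 32817 windows. The STAT letters TTCNNNGAA were in 3 of the 8 (Apcs, Socs3 and Steap4) and in 7.01% of all windows, and the NF-kB letters (GGG, any 2 bases, TT, any base, CC) in 1 of the 8 (Steap4) and in 4.11% of all. In Saa1 and Saa2 the capitals are the same C/EBP match, TTGCACAA, whereas Saa3 has TTATGCAA and Orm2 has TTGCGCAA. Steap4 is the only member with a match to all 3 motifs. A match describes letters and not a bound site.

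Per kilobase of exon, haptoglobin and orosomucoid 1 were the highest members in sham liver and serum amyloid A3 the lowest. There Hp had 1075 ± 68.9 CPM per kilobase (SD, n = 3), Orm1 782 ± 69.4 and Apcs 385 ± 27.6. Steap4 (47.3 ± 4.30) and Saa1 (45.1 ± 16.6) did not differ beyond their spread. Saa2 followed at 9.91 ± 2.63, then Socs3 (5.89 ± 2.45) and Orm2 (5.43 ± 1.79), which overlapped, Lcn2 (2.66 ± 1.06) and Saa3 (0.809 ± 0.112). After partial hepatectomy Saa1 stood at 1361 ± 373 CPM per kilobase, behind Hp at 3349 ± 953 and Orm1 at 2272 ± 325. The order of Saa1, Saa2 and Lcn2 depends on the length used, because the exons of all their transcripts add up to more than the protein-coding one. These lengths were 2478 against 609 bases for Saa1 and 2623 against 915 for Lcn2. With the longest protein-coding transcript, Saa1 ranked first after hepatectomy, at 5539 CPM per kilobase. With that length Lcn2 had 7.62 CPM per kilobase in sham liver, above Socs3 (6.68) and Orm2 (5.43). Changes are log2 fold changes from edgeR.

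**Figure D1:**
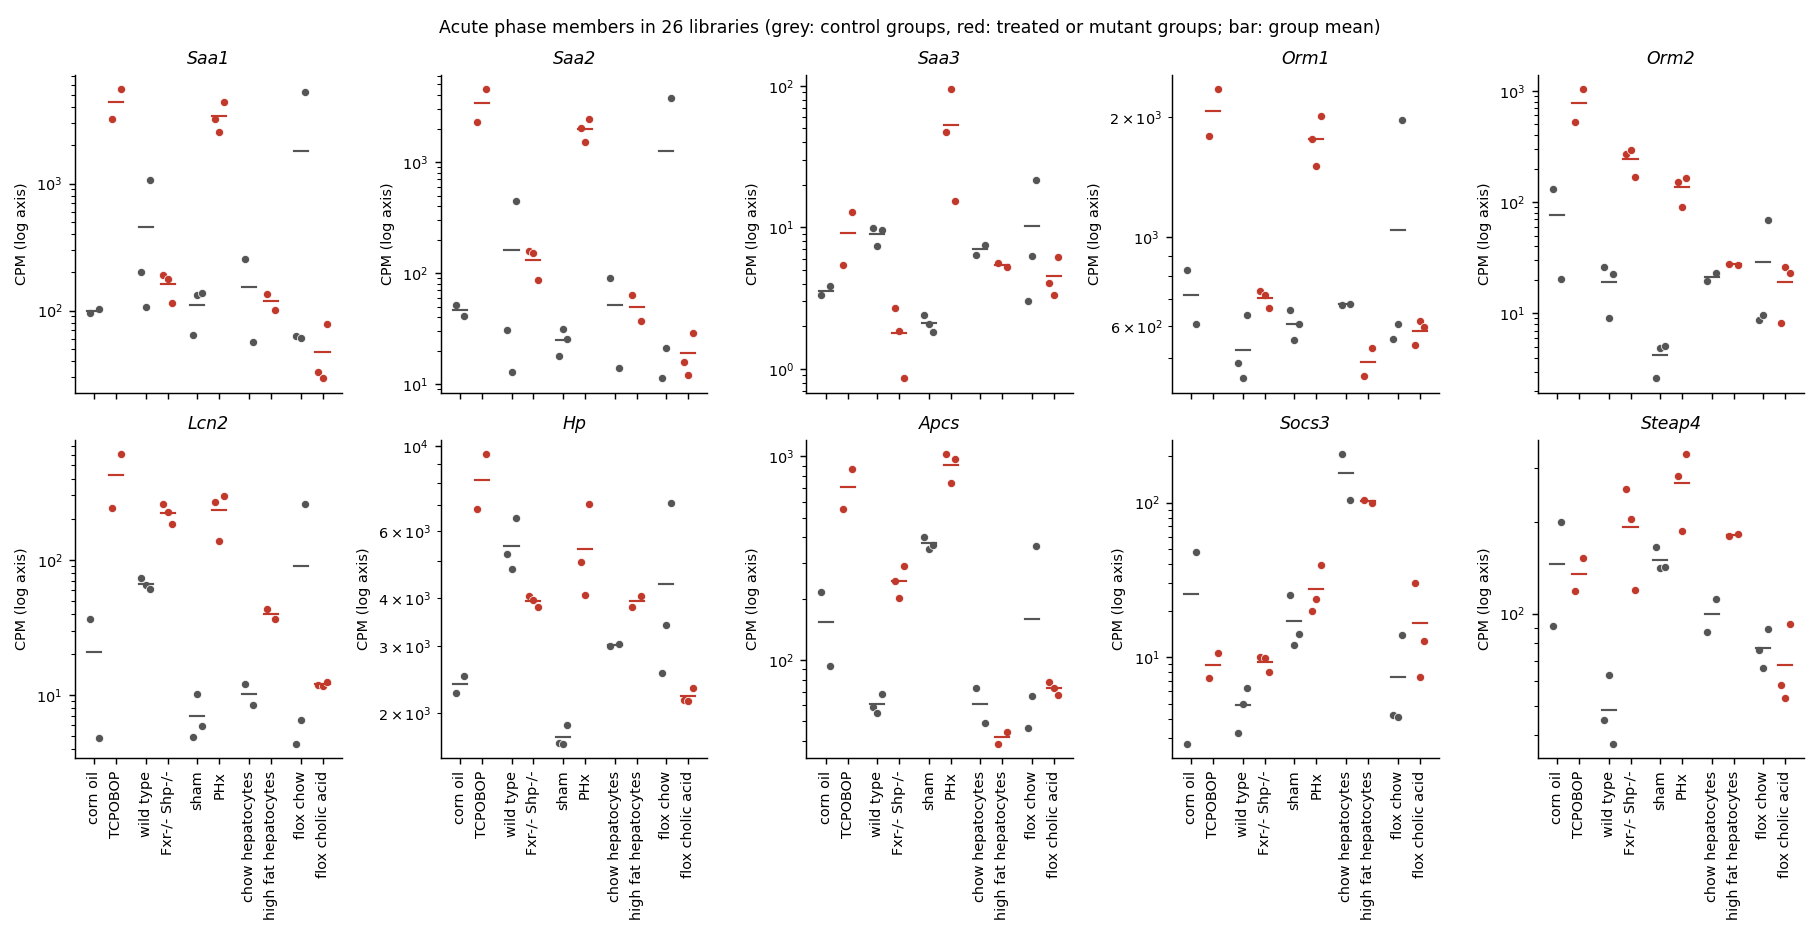
Level of each member in each library, as CPM on a log axis (grey for control groups, red for treated or mutant groups, bars for group means). Flox chow 3 lies far above the other chow libraries for Saa1 (5255 against 62.7 and 60.7), and the 3 PHx libraries lie above the 3 sham libraries for 9 members.

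Of the 10 members, 9 rose 48 hours after partial hepatectomy against 16.4% of the 13753 genes tested, and none fell, against 14.3%. Those 9 members were higher in every PHx library than in every sham library, which held for 24.2% of genes. The median change over the members was 3.14 on the log2 scale, against 0.01 over all genes tested. In bulk liver, fewer cells of a type and less RNA per cell cannot be told apart, and the same holds for gains.

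Among the serum amyloid A genes, which encode lipoprotein-bound proteins of the response, Saa1 had 64.4, 133 and 138 CPM in sham and 3193, 2553 and 4374 in PHx libraries. It rose 30.2-fold (4.92 ± 0.35, log2 fold change ± SE, edgeR adjusted p = 4.37e-05). Saa2 had 18.1, 31.3 and 25.4 CPM in sham and 2031, 1507 and 2455 in PHx, a rise of 80.0-fold (6.32 ± 0.29, edgeR adjusted p = 6.46e-06). Both genes were far above sham in each PHx library. Saa3, the member made largely outside hepatocytes, in macrophages and fat, had 2.42, 2.07 and 1.84 CPM in sham and 47.5, 95.1 and 15.5 in PHx. It rose 24.9-fold (4.64 ± 0.63, edgeR adjusted p = 0.00126), and its PHx libraries were spread more widely than those of Saa1 and Saa2. Without PHx 2 the change of Saa3 was 3.89 on the log2 scale.

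The orosomucoids are acidic plasma glycoproteins that bind drugs and lipids. Orm1 had 659, 552 and 606 CPM in sham and 1762, 1508 and 2012 in PHx, a rise of 2.91-fold (1.54 ± 0.13, edgeR adjusted p = 8.78e-05). Orm2 started much lower, at 2.61, 4.94 and 5.07 CPM, and reached 153, 90.0 and 164. That was a rise of 32.2-fold (5.01 ± 0.33, edgeR adjusted p = 2.68e-05). The 2 nearby genes therefore rose by very different factors, from very different starting levels.

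Lipocalin 2 keeps iron from bacteria. Lcn2 had 4.87, 10.1 and 5.94 CPM in sham and 270, 137 and 297 in PHx, and rose 33.6-fold (5.07 ± 0.39, edgeR adjusted p = 6.37e-05). Hp, which encodes the haemoglobin-binding haptoglobin, went from 1664, 1662 and 1855 CPM to 4983, 4082 and 7068 (1.64 ± 0.19, edgeR adjusted p = 0.000597). Apcs, which encodes serum amyloid P, the main acute phase pentraxin of mice, went from 404, 352 and 366 CPM to 1023, 736 and 968 (1.28 ± 0.13, edgeR adjusted p = 0.000321). These 3 genes did not overlap between the groups. The smallest differences were those of Steap4 and Socs3. Steap4 had 165, 141 and 142 CPM in sham and 283, 186 and 332 in PHx (0.84 ± 0.19, edgeR adjusted p = 0.0136). Socs3 had 25.1, 11.9 and 14.1 CPM in sham and 19.8, 23.8 and 39.6 in PHx. Its groups overlapped and it did not pass the test (0.71 ± 0.33, edgeR adjusted p = 0.137).

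Steap4 lost its call without sham 2 (edgeR adjusted p = 0.0594) or sham 3 (0.0616), Socs3 gained it without sham 1 (1.09, adjusted p = 0.0354), and Apcs lost it in a single fit of all 26 libraries (adjusted p = 0.0576). The members took 1.53% ± 0.347 of gene counts after PHx (SD, n = 3) and 0.290% ± 0.0105 in sham (two-sided exact permutation p = 0.1, the smallest that 3 against 3 allows). Neutrophil markers summed to 0.801 to 0.935 CPM in sham and 1.16 to 3.81 in PHx, with 1 of the 2 tested of 10 raised (Cxcr2) and Camp at 0 in both groups. Hepatocyte markers summed to 120637 to 125824 CPM in sham and 91662 to 100934 in PHx, with 6 of 10 lowered. Macrophage markers summed to 174 to 296 CPM in sham and 233 to 356 in PHx, with 1 of 10 raised. The part of these cell types in the members' changes was not tested.

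**Figure D2:**
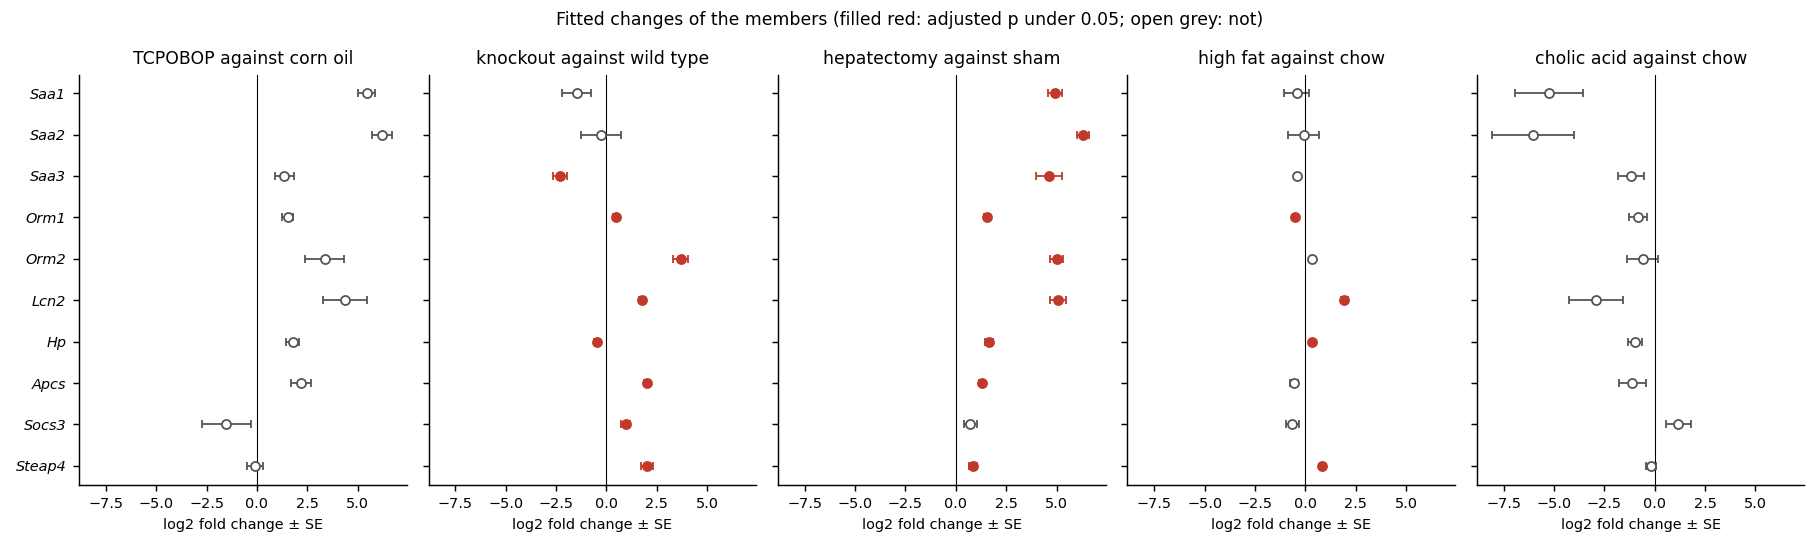
Log2 fold change of each member in each of the 5 comparisons, with its standard error (filled red where the edgeR adjusted p is under 0.05, open grey where not). After hepatectomy all but Socs3 are filled and right of 0, and in the knockout Saa3 and Hp lie left of 0 while Orm2 lies farthest right at 3.69.

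In Fxr-/- Shp-/- liver 6 members rose (Orm1, Orm2, Lcn2, Apcs, Socs3 and Steap4), against 21% of the 13473 genes tested, and 2 fell (Saa3 and Hp), a share near the 19.4% of all genes that fell. The same members did not overlap between the genotypes, 6 above (25.5% of genes) and 2 below (28.2%). Reads that aligned to several places were 43.2% to 44.1% in wild type and 25.5% to 26.9% in the knockout libraries. This difference between libraries cannot be told apart from the genotype for any member, and its part was not tested. The median change of the members was 0.71 on the log2 scale, against -0.01 over all genes tested. Their summed share of gene counts was 0.663% ± 0.0657 in the knockout and 0.659% ± 0.141 in wild type (n = 3 each, two-sided exact permutation p = 1).

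Orm2 changed most, from 26.1, 9.15 and 22.6 CPM in wild type to 273, 296 and 169 in the knockout. It rose 12.9-fold (3.69 ± 0.37, edgeR adjusted p = 0.000125). Orm1 went from 484, 443 and 639 CPM to 733, 719 and 665 (0.46 ± 0.14, edgeR adjusted p = 0.0283). The groups of Orm1 lay close together and those of Orm2 far apart. Apcs had 58.6, 55.3 and 68.3 CPM in wild type and 245, 201 and 289 in the knockout, a rise of 4.10-fold (2.03 ± 0.15, edgeR adjusted p = 2.11e-05). Steap4 had 44.7, 62.7 and 37.5 CPM in wild type and 255, 204 and 119 in the knockout (2.01 ± 0.29, edgeR adjusted p = 0.000818). Socs3 was low throughout, with 3.25, 5.0 and 6.35 CPM in wild type and 10.0, 9.88 and 8.01 in the knockout (0.96 ± 0.23, edgeR adjusted p = 0.0105). Every knockout library was above every wild type library for these genes.

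Lcn2 had 74.0, 64.8 and 60.8 CPM in wild type and 258, 226 and 186 in the knockout, a rise of 3.40-fold (1.77 ± 0.14, edgeR adjusted p = 3.40e-05). Neutrophils also express Lcn2. The 10 neutrophil markers summed to 1.02 to 4.02 CPM in wild type and 11.2 to 20.7 in the knockout, where S100a8 rose (log2 fold change 5.07, edgeR adjusted p = 0.000116). S100a8 made up 17.8, 14.6 and 8.99 CPM of the knockout sums. Of 3 markers tested 2 rose (S100a8 and Retnlg) and S100a9 did not pass, and Ly6g, Mpo and Ngp were at 0 in every knockout library. Their part in the rise of Lcn2 was not tested. Bile duct markers rose in 4 of 6 cases (26.9 to 36.5 CPM in wild type, 55.0 to 129 in the knockout). Hepatocyte markers fell in 5 of 10. Stellate markers rose in 4 of 7 cases and fell in 1, and endothelial markers rose in 2 of 7. Macrophage markers rose in 2 of 10 cases and fell in 1. They summed to 211 to 466 CPM in wild type and 301 to 613 in the knockout. The part of these cell types in the members' changes was not tested.

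The members that fell were Saa3 and Hp. Saa3 went from 9.91, 7.34 and 9.53 CPM to 2.68, 1.85 and 0.858, a fall of 4.90-fold (-2.29 ± 0.33, edgeR adjusted p = 0.000941). Saa3 was thus lower in the knockout while other acute phase members were higher. Hp went from 5210, 4764 and 6483 CPM to 4059, 3950 and 3799 (-0.46 ± 0.14, edgeR adjusted p = 0.0263). Orm1 and Hp were close to the threshold, and each lost its call without 4 of the 6 libraries: Orm1 without wild type 1 or 2 or knockout 1 or 2 (edgeR adjusted p from 0.0812 to 0.109), Hp without wild type 1 or 3 or knockout 1 or 2 (0.0553 to 0.0938). In a single fit of all 26 libraries the calls of Orm1, Lcn2, Hp and Socs3 were lost (edgeR adjusted p from 0.145 to 0.316).

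Saa1 and Saa2 turned on wild type 3. Saa1 had 203, 106 and 1067 CPM in wild type and 190, 178 and 116 in the knockout (-1.48 ± 0.71, edgeR adjusted p = 0.126, and 0.0270 with no filter on low counts). Saa2 had 30.6, 12.9 and 444 CPM in wild type and 157, 153 and 87.3 in the knockout (-0.26 ± 1.01, edgeR adjusted p = 0.858). Wild type 3 was 5.26 times the higher of the other 2 wild type libraries for Saa1 and 14.5 times for Saa2. Without wild type 3, Saa2 was higher in the knockout (2.61, edgeR adjusted p = 0.00294), while Saa1 differed by 0.072 (adjusted p = 0.871). Without wild type 2, Saa1 was lower (-1.95, adjusted p = 0.0374). The share of reads that aligned to several places, given above, also differed between these groups, and its part in the Saa1 and Saa2 counts was not tested.

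The balance between Saa1 and Saa2 also lay apart between some groups, but no permutation test of it could pass 0.05 here. The 2 genes are close copies. The share of reads aligned to several places differed between knockout and wild type, and its part in this balance was not tested. Saa2 made up 13.1%, 10.9% and 29.4% of the reads of both genes in wild type, and 45.2%, 46.2% and 43.0% in the knockout (44.8% ± 1.63 against 17.8% ± 10.1, n = 3, two-sided exact permutation p = 0.1, the smallest possible). After hepatectomy it was 38.9%, 37.1% and 36.0%, against 22%, 19.1% and 15.5% in sham (37.3% ± 1.47 against 18.9% ± 3.23, n = 3, exact permutation p = 0.1). In TCPOBOP libraries it was 41.6% and 45.1%, against 35% and 28.6% in corn oil, where 2 against 2 cannot go below 0.333. On the high fat diet it was 31.7% and 27.0%, against 26.2% and 19.9% on chow. The groups did not overlap in these 4 comparisons, and on cholic acid they did (29.5% ± 2.91 against 27.7% ± 13.3, n = 3, exact permutation p = 0.8). Flox chow 3, at 41.8%, was above the other 2 chow libraries (15.3% and 26.1%).

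**Figure D3:**
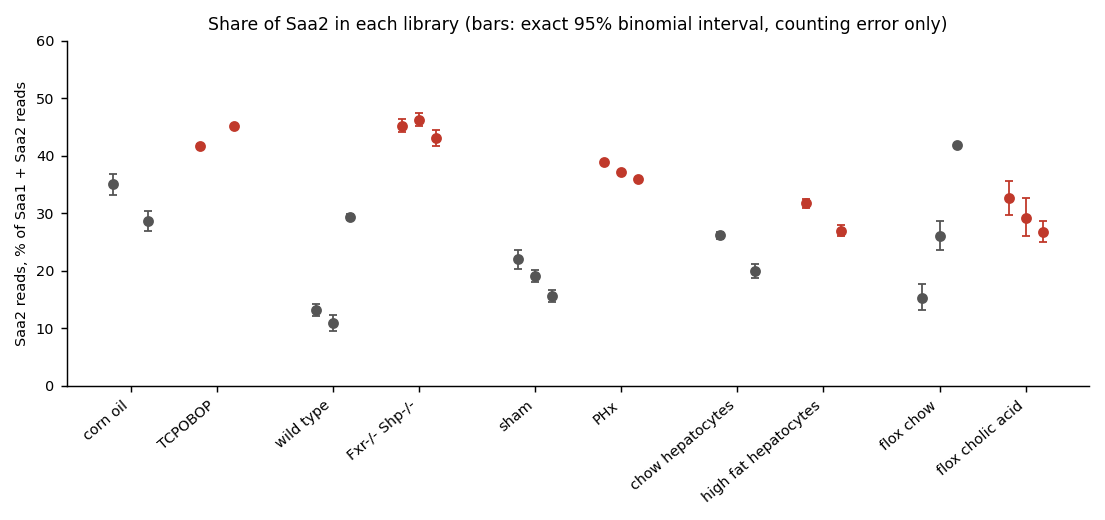
Saa2 reads as a percentage of Saa1 plus Saa2 reads in each library, with exact (Clopper-Pearson) 95% binomial intervals that cover counting error only. The knockout libraries lie between 43.0% and 46.2% and the wild type libraries between 10.9% and 29.4%.

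With TCPOBOP, 8 of the 10 members stood higher in both treated libraries than in both corn oil libraries, against 17.6% of the 12785 genes tested. None passed the edgeR test, and neither did any other gene in this comparison (0% called, smallest adjusted p = 0.345). At an unadjusted p under 0.05 edgeR gave 751 genes and 8 members, and DESeq2 called 91 genes and 5 members (Saa1, Saa2, Orm1, Hp and Apcs). The median difference of the members was 1.98 on the log2 scale, against -0.02 over all genes tested. Each direction here rests on the labels, which the Cyp2b10 level of the library labelled corn oil 1 goes against.

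Saa1 had 96.1 and 104 CPM in corn oil and 3213 and 5539 in TCPOBOP libraries (5.45 ± 0.42, edgeR adjusted p = 0.345). Saa2 had 51.8 and 41.5 CPM in corn oil and 2293 and 4555 in TCPOBOP (6.19 ± 0.50, edgeR adjusted p = 0.345). The 2 libraries labelled corn oil were close together for these 2 genes, although their Cyp2b10 levels were not, and both TCPOBOP libraries were far above them. Hp had 2261 and 2494 CPM in corn oil and 6821 and 9514 in TCPOBOP (1.77 ± 0.33), and Orm1 827 and 608 against 1795 and 2355 (1.52 ± 0.29). Saa3 had 3.31 and 3.83 CPM against 5.45 and 12.9 (1.36 ± 0.47). The 5 adipocyte markers summed to 14.7 and 15.9 CPM in corn oil and 20.4 and 30.9 in TCPOBOP, with none called, and their part in the level of Saa3 was not tested. Hp, Orm1 and Saa3 also had corn oil libraries of like level.

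The corn oil libraries disagreed for the rest. Lcn2 had 4.83 CPM in corn oil 2 and 36.5 in the library labelled corn oil 1, against 244 and 605 in TCPOBOP (4.36 ± 1.09). Orm2 had 20.5 and 131 CPM in the same order, against 522 and 1037 (3.35 ± 0.96), and Apcs 93.3 and 216, against 554 and 862 (2.19 ± 0.49). All 3 were higher in the library labelled corn oil 1 than in corn oil 2. Socs3 went the other way, with 48.1 CPM in corn oil 2 and 2.76 in the library labelled corn oil 1, around 7.31 and 10.6 in TCPOBOP (-1.52 ± 1.2). Steap4 had 91.2 and 199 CPM in corn oil and 118 and 152 in TCPOBOP (-0.11 ± 0.40), so its groups overlapped.

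Without the library labelled corn oil 1, edgeR called 1233 genes and 8 members: Saa1, Saa2, Orm1, Orm2, Lcn2, Hp and Apcs were higher and Socs3 was lower (-2.43, adjusted p = 0.000459). Without corn oil 2 it called 413 genes and the same 8 members, but Socs3 was then higher (1.69, adjusted p = 0.0381). In both fits corn oil is 1 library that is assumed to vary like the TCPOBOP pair. A direction for Socs3 therefore cannot be given, while Saa1 was 5.40 and 5.50 higher on the log2 scale in the 2 fits. Without either TCPOBOP library no gene was called. Neutrophil markers summed to 1.16 to 4.83 CPM in corn oil and 1.80 to 2.61 in TCPOBOP, with Ly6g, Mpo and Ngp at 0 in both.

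In isolated hepatocytes on the high fat diet, Lcn2, Hp and Steap4 rose (3 of 10 members, against 12.9% of 13892 genes tested) and Orm1 fell (1 of 10, near the 11.1% of all genes). The median over the members was -0.23 on the log2 scale, against 0.01 over all genes tested. Lcn2 had 12.0 and 8.39 CPM on chow and 43.7 and 36.4 on the high fat diet, a rise of 3.85-fold (1.95 ± 0.19, edgeR adjusted p = 0.00424). Steap4 had 86.8 and 112 CPM on chow and 179 and 183 on high fat (0.84 ± 0.13, edgeR adjusted p = 0.0112). Hp had 3003 and 3023 CPM on chow and 3795 and 4038 on high fat (0.35 ± 0.09, edgeR adjusted p = 0.0422). Orm1 had 679 and 681 CPM on chow and 448 and 527 on high fat, and fell (-0.51 ± 0.11, edgeR adjusted p = 0.0245). With those not called, 4 members lay wholly above chow (37.5% of genes) and 4 wholly below (30.2%).

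The call of Hp was lost without any 1 of the 4 libraries (edgeR adjusted p from 0.0847 to 0.142), and that of Orm1 without high fat 1 (0.0915). All 4 calls were lost in the fit of 26 libraries (adjusted p from 0.129 to 0.503). Macrophage markers rose in 6 of 10 cases (50.5 to 53.3 CPM summed on chow, 83.7 to 94.8 on high fat), endothelial markers in 7 of 7 (54.1 to 58.1, then 132 to 135) and stellate markers in 6 of 7 (15.8 to 25.1, then 57.3 to 62.5). Adipocyte markers summed to 0.0581 to 0.190 CPM and then 2.59 to 2.61, with the 1 of 5 tested, Cfd, raised. Their part in the members' changes was not tested. The neutrophil markers summed to at most 0.420 CPM, with Ly6g at 0 in both groups.

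The other 6 members did not pass the test. Saa1 had 254 and 56.2 CPM on chow and 136 and 101 on high fat (-0.42 ± 0.63, edgeR adjusted p = 0.657). The chow pair lay on both sides of the high fat pair, and without chow 1 the difference was 1.05 (adjusted p = 0.0123), without chow 2 -1.14 (0.00598). Saa2 behaved alike, with 89.8 and 14 CPM on chow and 63.2 and 37.1 on high fat (-0.08 ± 0.77). Without chow 1 Saa2 differed by 1.82 (edgeR adjusted p = 0.00937). Socs3 had 205 and 104 CPM on chow and 104 and 99.6 on high fat (-0.63 ± 0.30). It was higher in these hepatocyte libraries than in any whole liver library, where it did not exceed 48.1 CPM. Cell isolation, age, sequencing depth and experiment cannot be told apart in this comparison. Saa3, Orm2 and Apcs differed by -0.39, 0.35 and -0.57 (edgeR adjusted p at least 0.0637). Without chow 2, Orm2 (0.47), Apcs (-0.85) and Socs3 (-1.06) passed the threshold. In these fits chow is 1 library that is assumed to vary like the high fat pair.

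The cholic acid diet gave no call among the members (0 raised, against 2.27% of 12577 genes tested, and 0 lowered, against 2.5%). At an unadjusted p under 0.05 edgeR gave 2904 of the 12577 genes and 3 members, Saa1, Saa2 and Hp. DESeq2 called 1445 genes and 1 member, Hp. The members' median was -1.05 on the log2 scale, against 0.01 over all genes tested. This rested on flox chow 3, in which 9 of the 10 members were over 2 times both other chow libraries, beside the 6.41% of genes given above.

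In flox chow Saa1 had 62.7, 60.7 and 5255 CPM, and in flox cholic acid 33.1, 29.4 and 79.0 (-5.24 ± 1.71, edgeR adjusted p = 0.117). Saa2 had 11.3, 21.4 and 3777 CPM in chow and 16.0, 12.1 and 28.9 in cholic acid (-6.06 ± 2.03, edgeR adjusted p = 0.126). With no filter on low counts both were called lower (edgeR adjusted p = 0.0183 for Saa1 and 0.0222 for Saa2). Flox chow 3 was 83.8 times the higher of the other 2 chow libraries for Saa1 and 176 times for Saa2. Lcn2 had 4.37, 6.58 and 260 CPM in chow and 11.8, 11.6 and 12.5 in cholic acid (-2.91 ± 1.33). Orm2 had 8.74, 9.70 and 68.4 CPM in chow and 8.28, 25.9 and 23.0 in cholic acid (-0.60 ± 0.78). Flox chow 3 was the highest of the 6 for both.

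Hp had 2540, 3408 and 7095 CPM in chow and 2167, 2143 and 2320 in cholic acid, the only member whose groups did not overlap, against 15.6% of genes (-0.98 ± 0.36, edgeR adjusted p = 0.152). Apcs had 46.2, 66.8 and 363 CPM in chow and 67.5 to 78.4 in cholic acid. Orm1 had 557, 605 and 1966 CPM in chow and 537 to 618 in cholic acid. Saa3 reached 21.7 CPM in flox chow 3 and lay between 3.04 and 6.24 in the other 5 libraries. Socs3 had 4.22, 4.07 and 13.9 CPM in chow and 30.0, 7.38 and 12.7 in cholic acid (1.18 ± 0.61). Steap4 alone did not stand out in flox chow 3, with 76.2, 66.3 and 89.2 CPM in chow and 53.0 to 92.3 in cholic acid.

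Without flox chow 3, Saa1 differed by -0.39 and Saa2 by 0.21, Socs3 by 2.01 in place of 1.18, and Lcn2 rose by 1.12 ± 0.22 (edgeR adjusted p = 0.0199), the 1 member called in that fit. Neutrophil markers summed to 16.7 CPM in the highest chow library, flox chow 3, and to 0.475 in the lowest, and to 1.40 to 5.34 in cholic acid, with Mpo, Camp and Ltf at 0 in chow. A list of 27 further positive acute phase genes was read in flox chow 3. Of these, 10 were over 2 times the higher of the other 2 chow libraries (Fgl1 5.59 times, Hpx 2.73 times). Another 6 were below it, among them Hamp, the iron hormone hepcidin (0.0813 times), Orm3 (0.369 times), Saa4 (0.779 times) and Serpina1a (0.980 times). The cause of this library's difference was not tested.

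**Figure D4:**
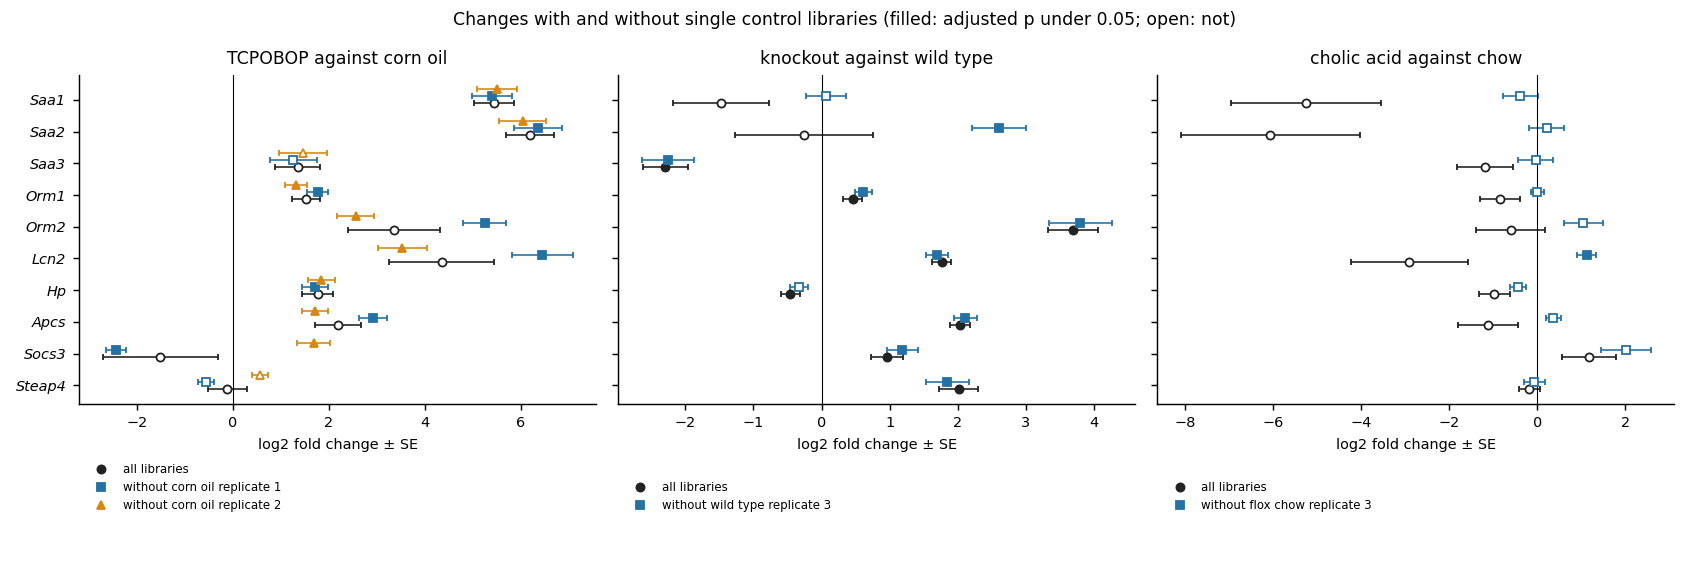
Log2 fold change ± SE of each member with all libraries (circles) and without the named control library (squares or triangles; filled where the edgeR adjusted p is under 0.05). Without flox chow 3 the estimate of Saa1 moves from -5.24 to -0.39, and without wild type 3 that of Saa2 from -0.26 to 2.61.

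Whether the effects differed was tested directly for the 3 whole liver experiments with 3 libraries per group. The experiments also differ in strain, age and feeding, which cannot be told apart from the treatment. The same holds for the share of reads aligned to several places, which differed between knockout and wild type. The hepatectomy effect exceeded the knockout effect for 6 members (Saa1, Saa2, Saa3, Orm1, Lcn2 and Hp, against 16% of 14755 genes tested) and was smaller for 2 (Apcs and Steap4, against 15.4%). The largest gap was that of Saa3, which rose in the former and fell in the latter, at 6.92 ± 0.79 on the log2 scale (edgeR adjusted p = 3.54e-05). Hp also moved in opposite directions (2.08 ± 0.25, edgeR adjusted p = 5.46e-05). Orm2 did not pass the test of the difference (1.30 ± 0.51, edgeR adjusted p = 0.0673, and 0.0115 with no filter), nor did Socs3 (-0.27 ± 0.45). Without wild type 3 the gap of Saa1 was 4.83 in place of 6.38 and that of Saa2 3.70 in place of 6.57. Steap4 lost its call without wild type 1 or 3, knockout 1 or 2, sham 1 or PHx 2 (-1.15 to -0.93).

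The hepatectomy effect exceeded the cholic acid effect for 7 members (against 8.01% of 13985 genes tested) and was smaller for none (5.01%), and the knockout effect exceeded the cholic acid effect for 3 (Orm2, Apcs and Steap4, against 7.18% of 13935) and was smaller for none (6.74%). Both rest on the flox chow group. Without flox chow 3, the gap between hepatectomy and cholic acid fell from 10.17 to 5.30 for Saa1, from 12.39 to 6.11 for Saa2 and from 7.99 to 3.94 for Lcn2, and 8 members passed. Without the same library, the gap between knockout and cholic acid was 2.64 for Orm2, 1.67 for Apcs and 2.09 for Steap4, all still called, and Saa3 was then lower (-2.25, edgeR adjusted p = 0.0196). Apcs also lost that call without wild type 2 (3.11, edgeR adjusted p = 0.0512).

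The signalling genes that drive the response showed mixed changes. Of the 37 genes of a cytokine signalling list, 10 rose and 8 fell in the knockout (33 tested), 3 rose and 5 fell after hepatectomy (34 tested), 7 rose and 7 fell on the high fat diet (35 tested), 1 rose and 4 fell on cholic acid (33 tested), and none passed with TCPOBOP. Over all genes tested, 21% rose and 19.4% fell in the knockout, 16.4% and 14.3% after hepatectomy, 12.9% and 11.1% on the high fat diet and 2.27% and 2.5% on cholic acid, and these shares stand beside all 3 lists. Medians lay between -0.21 and 0.06 on the log2 scale. The transcript of Il6 itself was scarce, with 0 to 15 counts per library. Stat3 rose in 2 comparisons, from 108 ± 0.836 to 135 ± 11.5 CPM after hepatectomy (0.32, edgeR adjusted p = 0.0242) and from 107 ± 7.08 to 145 ± 12.0 in the knockout (0.46, edgeR adjusted p = 0.00593). In the knockout Osmr, the oncostatin M receptor, rose by 1.73 and Il1rn, the interleukin 1 receptor antagonist, by 2.78, whereas Il1r1, the interleukin 1 receptor, fell by 2.05, Il1rap, its partner chain, by 1.43 and Cebpb by 1.5. Il1r1 also fell by 2.25 in high fat hepatocytes and rose by 1.2 on cholic acid.

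Of 27 genes listed as further positive acute phase genes, 13 rose and none fell after hepatectomy, with a median of 0.46 on the log2 scale. Whether each listed gene takes part in the response was not tested. Fgl1, a hepatokine, rose by 2.91, the protease inhibitor A2m by 2.68 and Lrg1 by 1.90, and the 3 fibrinogen chains Fga, Fgb and Fgg by 0.55, 0.52 and 0.61. In the knockout 8 rose and 5 fell of 26 tested: another orosomucoid, Orm3, rose by 3.55 and the metal-binding metallothioneins Mt2 and Mt1 by 2.19 and 1.98, while Serpina1a fell by 1.77, Saa4 by 1.29 and Lrg1 by 0.88. On the high fat diet 2 rose (Orm3 by 1.84 and Pdk4 by 1.03) and 2 fell, on cholic acid none rose and 2 fell (Saa4 by 1.25 and Serpina1a by 0.87), and with TCPOBOP the median was 0.75 with no call. Lrg1 thus rose after hepatectomy and fell in the knockout, as Hp and Saa3 did.

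Negative acute phase genes, whose transcripts usually fall in the response, were called in both directions after hepatectomy: 7 of 15 fell, against 14.3% of all genes, and 3 rose, near the 16.4% of all genes. Serpina6, the corticosteroid carrier, fell by 1.04, Apoa2 by 0.79, Igf1 by 0.51 and Alb by 0.37. In the knockout 4 fell and 2 rose, and Serpina6 was among those that rose (2.58), with Igf1 down by 1.29. On the high fat diet 2 rose, Apoa4 by 3.09 and Serpina6 by 1.01, and 3 fell. None passed the test on cholic acid or with TCPOBOP, where no gene of any kind did. With TCPOBOP the median of these genes was -0.01 on the log2 scale, against -0.02 over all genes tested.

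**Figure D5:**
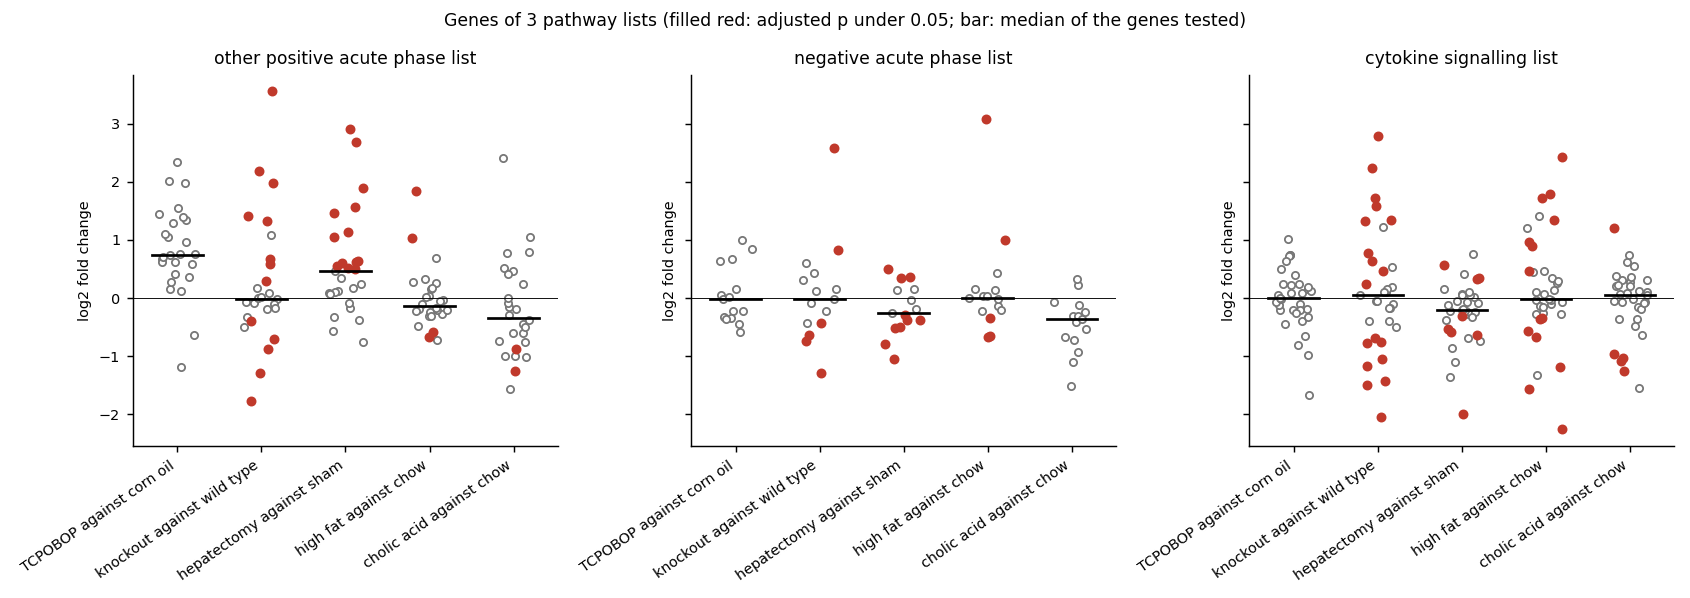
Log2 fold changes of the genes of 3 pathway lists in the 5 comparisons (filled red where the edgeR adjusted p is under 0.05, bars at the median of the genes tested). After hepatectomy the genes of the other positive acute phase list have a median of 0.46 and 13 filled points, all above 0.

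Within groups, the members varied together only in part. Over the 26 libraries, each taken as its deviation from its group mean, the 45 pairs of members had a median Pearson r of 0.53 (range -0.30 to 0.99), and 0.23 (-0.72 to 0.95) without flox chow 3. Libraries of a group share depth and preparation, and flox chow 3 carries much of this. Saa1 and Saa2 were the closest pair, at 0.99 with all 26 libraries and 0.95 without flox chow 3. Lcn2 and Apcs came next with all 26 libraries, at 0.94, and stood at 0.76 without flox chow 3. Several other pairs were also close, among them Orm1 and Apcs (0.92 and 0.66) and Orm1 and Hp (0.89 and 0.67). The genes outside the set whose deviations were most like the members' mean, of 11919 ranked, were Rps24-ps3 (r = 0.95, 0.76 without flox chow 3), Hpx (0.94, 0.79), Itih4 (0.94, 0.61), Serpina10 (0.92, 0.54) and Tyrobp (0.92, 0.74). Hpx and Itih4 belong to the positive acute phase list, and Serpina10 to the negative list.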

How the data were processed

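The authors deposited 1 table of raw read counts per gene, 47643 genes by 26 libraries. Per the submitters' processing notes, GRCm38 (mm10), bcl2fastq 2.17.1.14, Trimmomatic, STAR 2.4.2a, Picard 1.119 and HTSeq were used; their roles, the annotation and the strand setting are not given in the sources used here. Per the labels' protocols, libraries were made with a stranded TruSeq mRNA kit. The 5 summary lines stayed out of library sizes. Symbols matched 47224 identifiers. Each comparison was fitted alone over all genes with edgeR 4.0.16 (R 4.3.3, limma 3.58.1; quasi-likelihood F test, TMM, filterByExpr with a count of 10 and a total of 15), and a gene was called at a Benjamini-Hochberg adjusted p under 0.05. The 3 differences of effects were interaction contrasts. Simulated counts were run through the high fat, hepatectomy and knockout minus cholic acid fits only. They gave every gene the same spread beyond counting error and held no outlying library. Libraries that stand apart, such as flox chow 3, were therefore not covered. All 10 members are named; from each pathway list, at most 3 called genes that rose most and 3 that fell most in a comparison, and for likeness the 5 genes with the highest r. Stat3 in the knockout, Il6, Alb, the fibrinogens and the genes compared in flox chow 3 were chosen after their values were seen. Members, lists and tests were chosen with earlier results of these data known. Alternatives were DESeq2 (1.42.0) size factors and Wald test, no filter, the replicate number as a block, 1 fit of 26 libraries, each library left out, and other transcript lengths; summing Saa1 with Saa2, or the orosomucoids, and protein-coding length were added after seeing the data.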

Additional observations from a re-analysis of the deposited data

Results flagged for a closer look

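These members' effects differed between experiments by a test of the difference itself (edgeR, adjusted p under 0.05 over all genes tested, 3 libraries per group), given as the difference of the log2 fold changes. Strain, age, feeding and experiment cannot be told apart from the treatment, nor can the share of multiply aligned reads from the knockout. Hepatectomy minus knockout was 6.38 for Saa1, 6.57 for Saa2, 6.92 for Saa3, 1.07 for Orm1, 3.29 for Lcn2 and 2.08 for Hp, and it was -0.77 for Apcs and -1.19 for Steap4. Hepatectomy minus cholic acid was 10.17 for Saa1, 12.39 for Saa2, 5.83 for Saa3, 2.38 for Orm1, 5.61 for Orm2, 7.99 for Lcn2 and 2.62 for Hp. Without flox chow 3 these 7 were 5.30, 6.11, 4.68, 1.53, 3.96, 3.94 and 2.07, all still called. Knockout minus cholic acid was 4.30 for Orm2, 3.16 for Apcs and 2.21 for Steap4.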

How the results depend on the processing

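DESeq2's size factors changed no call. The sum of Saa1 and Saa2 gave the calls of Saa1, and the sum of the 3 orosomucoids gave those of Orm1. The call of Orm2 for knockout minus cholic acid was not kept by the sum, with 0 raised. The DESeq2 Wald test gave 5 members raised and 91 genes called with TCPOBOP, 2 members lowered on the high fat diet, and 1 lowered with 1445 genes on cholic acid. With no filter, cholic acid gave 2 lowered and 955 genes, and knockout minus cholic acid 5 raised. No filter also brought Saa1 in the knockout (-1.47, adjusted p = 0.0270), Orm2 for hepatectomy minus knockout (1.33, 0.0115), Apcs (2.39, 0.0128) and Steap4 (1.01, 0.0351) for hepatectomy minus cholic acid, and Saa2 (5.80, 0.0286) and Lcn2 (4.68, 0.0040) for knockout minus cholic acid past the threshold. A single fit of all 26 libraries gave 1 raised and 9 genes with TCPOBOP, 3 raised and 1 lowered in the knockout, 0 raised, 0 lowered and 1735 genes on the high fat diet, 4 lowered and 3132 genes on cholic acid, 1 lowered for hepatectomy minus knockout, 2749 genes for hepatectomy minus cholic acid, and 6 raised and 2991 genes for knockout minus cholic acid.

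Same-numbered libraries did not deviate together in every pair (correlations from -0.20 to 0.15). Libraries with different numbers were not compared, so these values cannot decide whether the numbers pair anything. With the replicate block the counts of calls stayed within 1.5 times, Saa2 turned to 1.47 in the knockout and 0.39 on the high fat diet, Hp on the high fat diet (adjusted p = 0.0888) and Apcs for knockout minus cholic acid (2.49, adjusted p = 0.0534) lost their calls, and Steap4 gained it for hepatectomy minus cholic acid (adjusted p = 0.0371).

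Leaving out each library in turn gave these ranges of counts: with TCPOBOP 0 to 8 raised, 0 to 1 lowered and 0 to 1233 genes; in the knockout 1 to 3 lowered; after hepatectomy 2554 to 4217 genes; on the high fat diet 0 to 4 lowered and 1141 to 2644 genes; on cholic acid 0 to 1 raised and 189 to 1345 genes; for hepatectomy minus knockout 1 to 2 lowered; for hepatectomy minus cholic acid 1089 to 2495 genes; for knockout minus cholic acid 2 to 5 raised and 0 to 1 lowered. On the log2 scale these members changed sign: Socs3 (-2.43 to 1.69) and Steap4 (-0.56 to 0.56) with TCPOBOP; Saa1 (-1.95 to 0.072) and Saa2 (-0.81 to 2.61) in the knockout; Saa1 (-1.14 to 1.05) and Saa2 (-0.88 to 1.82) on the high fat diet; Saa2 (-6.63 to 0.21), Orm1 (-1.14 to 0.0039), Orm2 (-1.03 to 1.05), Lcn2 (-3.47 to 1.12) and Apcs (-1.56 to 0.37) on cholic acid; Socs3 for hepatectomy minus knockout (-0.62 to 0.12) and minus cholic acid (-1.31 to 0.26); and Saa1 (-1.09 to 5.33), Saa2 (-0.48 to 8.69), Hp (-0.028 to 0.80) and Socs3 (-1.05 to 0.52) for knockout minus cholic acid. The cause was not tested. Groups of 2 libraries limit the TCPOBOP and high fat comparisons.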
